A study of Homo sapiens with 12 samples.

Results

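The cells described here were SHEP cells that received neither compound of the study. SHEP is a human neuroblastoma line that grows attached and flat, derived from the SK-N-SH line. Poly(A) RNA of the 3 untreated libraries (labelled Ctrl), out of 12 in the series, was read as CPM (reads of a gene scaled to a library total of 1000000), and every one of the 28576 genes in the table entered the ranking. The 3 libraries were chosen by their sample label, with no measured value. All 12 libraries came from SHEP cells that carry a MYCN-ER construct, a MYCN protein fused to an oestrogen receptor part and switched on by 4-hydroxytamoxifen, and a doxycycline-inducible short hairpin RNA against TCEAL1. The other 3 groups of 3 libraries received 4-hydroxytamoxifen, doxycycline or both, and they are not analysed here. The untreated cells therefore carried both constructs without either inducer. The labels give 1 cell line, do not say whether it was a single clone, and do not say whether the 3 replicates were separate cultures, so the spread between them may be technical.

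Neuroblastoma arises from the sympathoadrenal branch of the neural crest, the embryonic cells that form sympathetic neurons, adrenal chromaffin cells, Schwann cells, pigment cells and part of the facial mesenchyme. Neuroblastoma lines are commonly placed between an adrenergic state, held by factors such as HAND2, GATA3 and ISL1 and making catecholamines, and a mesenchymal state, held by PRRX1, TWIST1, SNAI2, RUNX and AP-1 factors and making vimentin, collagens and fibronectin. SHEP is widely used as a line of the mesenchymal state. The levels below describe which genes of either state these cells held before any treatment.

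The 3 libraries, named here replicates 1, 2 and 3, held 54984949, 56406236 and 57694970 reads. At this depth 1 CPM stood for 54.98 to 57.7 reads, and 3 reads, taken as the floor, stood for 0.052 to 0.0546 CPM. A gene is described as present at 1 CPM or more in each of the 3 libraries, as near 0 below 0.1 CPM in all 3, and as low in between. By that rule 15917 genes (55.7%) were present, 9093 were low and 3566 (12.5%) were near 0. Among the 16512 protein-coding genes 12420 (75.2%) were present and 954 were near 0. CPM favours long transcripts, so levels of different genes are compared on a length-scaled level, which is CPM per kilobase of merged exon, rescaled to a total of 1000000 per library and given below in length-scaled units. Errors are SDs over the 3 libraries (n = 3).

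The libraries were close to each other but not identical. Pearson correlations of log2 CPM over the 15917 genes present were 0.994, 0.995 and 0.995, and the difference of a gene between a pair of libraries had a median of 7.85% to 9.97%. Over 13017 genes averaging 5 CPM or more the median coefficient of variation was 6.79%, against 2.19% from read sampling alone. Replicate 1 stood apart in its transcript lengths: its deviation from the other 2 libraries correlated across genes with exon length (Spearman's rho 0.329, against -0.181 and -0.188 for replicates 2 and 3). Replicate 2 was the lowest library for a group of lipid synthesis genes described at the end.

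Some neighbouring genes had nearly the same CPM in every library. Of 11339 genes averaging 10 CPM or more, 530 had a neighbour within 10 kb whose CPM differed by less than 5% in each library, among them 16 genes of the lists used here. TUBA1B stood at 1919 CPM and its antisense neighbour AC011603.2 also at 1919 CPM, and NME2 and the read-through gene NME1-NME2 both stood at 1214 CPM. The exons of AC011603.2 overlap those of TUBA1B over 80.2% of their length. For such pairs the level cannot be assigned to one gene, and whether the same reads were counted for both was not tested. The pairs that bear on cell identity were CSF1R (267 CPM) with the ribosomal protein pseudogene RPL7P1 (266 CPM), which lies inside it on the other strand, PMEL (102 CPM) with CDK2 (101 CPM), TIMP1 (147 CPM) with SYN1 (147 CPM), SOX7 (43.8 CPM) with PINX1 (43.7 CPM), NR2C2 (97.6 CPM) with MRPS25 (97.7 CPM), PLAU (604 CPM) with C10orf55 (603 CPM), SOX9 (65.8 CPM) with SOX9-AS1 (66.7 CPM) and TUBB3 (88.1 CPM) with AC092143.1 (89.9 CPM). Each is named again below with that limit.

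The most abundant transcripts among genes with a row were those of a translation factor, actins, chaperones and glycolytic enzymes. The first 10 genes by mean CPM held 3.61% of all reads counted, the first 100 held 14.4% and the first 1000 held 43.3%. The first gene alone held 0.51%, so no single gene with a row dominated the counted reads. Mitochondrially encoded genes had no row, so this and the other shares of all reads given here leave out their reads. EEF1A1, the elongation factor that brings tRNA to the ribosome, was first at 5085, 5243 and 4974 CPM. It was followed by beta-actin (ACTB) at 4565, 5004 and 4918 CPM, the cytosolic chaperone HSP90AA1 at 3888, 4691 and 3836 CPM and the glycolytic enzyme GAPDH at 3811, 3989.8 and 4311 CPM. HSP90AA1 was highest in replicate 2 and GAPDH in replicate 3, while EEF1A1 and ACTB kept the first 2 places in every library. Gamma-actin (ACTG1, 3647), HSP90AB1 (3598), the intermediate filament protein vimentin (VIM, 2903), the chaperone HSPA8 (2792), the ribosomal stalk protein RPLP0 (2549) and the glycolytic enzyme ENO1 (2543) completed the first 10, given here as mean CPM. Vimentin and the matrix protein SPARC were the genes of the mesenchymal lists among the 20 highest with a symbol in the table, at 2716, 2911 and 3083 CPM for VIM and 2059, 1855 and 2082 CPM for SPARC.

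**Figure D1:**
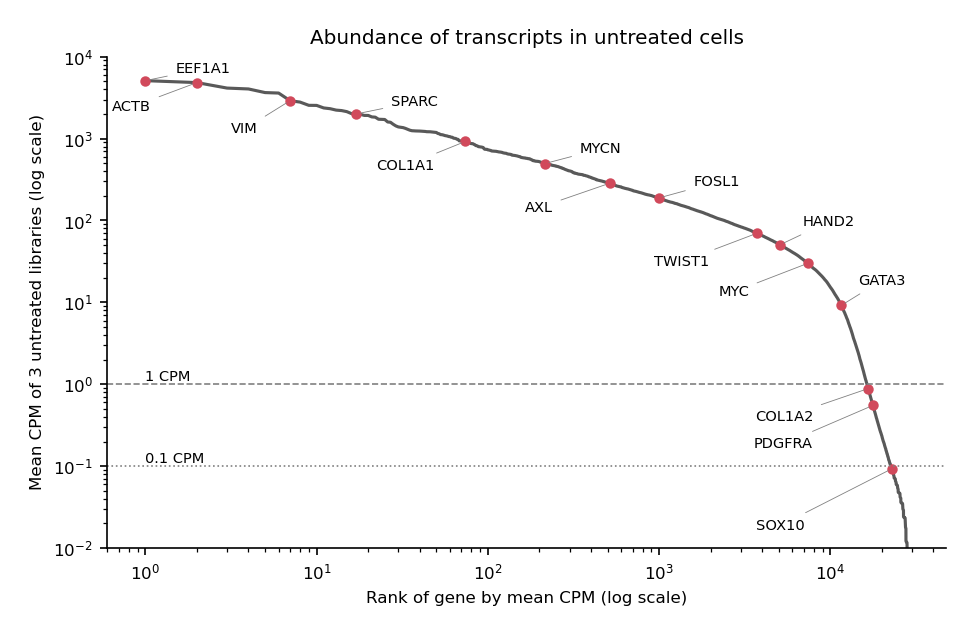
Mean CPM of the 3 untreated libraries (vertical axis, log scale) against the rank of the gene by mean CPM (horizontal axis, log scale), with 15 genes of the text as red points and dashed and dotted lines at 1 and 0.1 CPM. VIM and SPARC lie near the top of the curve, and SOX10 lies near 0.1 CPM.

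The next places among genes with a symbol went, by mean CPM, to the pseudogene EEF1A1P5 (2318), PABPC1 (2228), which coats poly(A) tails, EEF2 (2198), which moves the ribosome along, EIF2B5 (2135), PKM (2018), SPARC, UBB (1979), TUBA1B, RPL8 (1839.9) and NPM1 (1826). A further 2 genes with only a clone-based name ranked among them, AL669831.3 (2368 CPM), a transcribed pseudogene, and AC011603.2. EIF2B5 codes for 1 subunit of a complex of 5 different subunits that recharges the initiation factor eIF2. EIF2B5 stood at 2139, 2073 and 2192 CPM, and on the length-scaled level it reached 856 ± 31.4 units against 158 ± 1.85 for EIF2B1, 50.7 ± 5.80 for EIF2B3, 26.3 ± 1.31 for EIF2B2 and 19.5 ± 0.756 for EIF2B4. EIF2B5 was 5.24 to 5.56 times EIF2B1 in each library, and a cause was not tested.

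Per length TMSB10, an actin-binding peptide, was the highest gene with a symbol at 5013 ± 472 units, with a CPM near that of its neighbour TRABD2A. It ranked 5 over all genes, after 4 with only a clone-based name (AC006064.4, AC093484.3, AC078778.2 and AC125611.3), which are short antisense or overlapping transcripts. EEF1A1P5 followed at 4806 ± 369.8, the iron store protein FTL at 4464 ± 264.6, ACTB at 3952 ± 115, GAPDH at 3901 ± 199, UBB at 3515 ± 308, ACTG1 at 3511 ± 252 and HSP90AB1 at 3477 ± 254. The SDs of neighbouring genes in this order overlapped, except between FTL and ACTB, so these places are not firm. The other genes among the 20 highest with a symbol were BCYRN1, NME1-NME2, MTATP6P1, EEF1A1, RPL8, RPL36A-HNRNPH2, RPS12, HSP90AA1, RPL41, RPS2, RPLP0 and YBX1, between 1833 (YBX1) and 3040 (BCYRN1) units. EEF1A1P5, MTATP6P1 and NME1-NME2 are a processed pseudogene, a nuclear copy of a mitochondrial gene and a read-through gene, so part or all of their reads may belong to the gene they resemble. No mitochondrially encoded gene had a row in the table used here.

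By class, 84 ribosomal protein genes, paralogues included, held 5.20 ± 0.28% of all reads, and 83 of them were present, with the muscle paralogue RPL3L at 0.259 CPM as the exception. The 47 cytoskeleton genes held 3.001 ± 0.080%, the 23 chaperones 2.07 ± 0.13%, the 15 translation factors 1.73 ± 0.02% and the 17 glycolytic enzymes 1.401 ± 0.058%. The 28 mesenchymal effector genes held 1.07 ± 0.03%, the 43 matrix glycoproteins 0.6001 ± 0.0327% and the 44 collagens 0.275 ± 0.015%. These classes share genes, so their shares overlap. VIM counts as cytoskeleton and as effector, and SPARC, FN1 and TGFBI count as effectors and as matrix glycoproteins. The 20 iron and redox genes held 0.633 ± 0.029%, less than the mesenchymal effectors.

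Ribosomal protein and elongation factor mRNAs are known for a run of pyrimidines at the very start of the transcript, through which mTOR signalling controls their translation. The RefSeq start sites (build GRCh38.p14) of abundant genes are shown to let that feature be seen, with 10 bases before the start and 20 from it, 5′ to 3′, and with the pyrimidine run that begins at the start in capitals. The first 3 genes have the run and the last 3 do not.
EEF1A1: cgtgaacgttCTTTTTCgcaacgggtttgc
RPLP0: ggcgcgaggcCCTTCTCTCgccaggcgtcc
EEF2: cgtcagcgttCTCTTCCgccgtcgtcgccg
HSP90AB1: caggtactccactctcagtctgcaaaagtg
VIM: atcgtgatctgggaggcccacgtatggcgc
SPARC: gcggtccttcagactgcccggagagcgcgc
They lie at chr6:73521013-73521042 (minus strand), chr12:120201092-120201121 (minus), chr19:3985444-3985473 (minus), chr6:44246184-44246213 (plus), chr10:17228231-17228260 (plus) and chr5:151686896-151686925 (minus). A C at the RefSeq start followed by at least 4 bases that are each C or T, read on the strand of the gene, was found in 43 of 67 ribosomal protein genes with a promoter in the table (64.2%). Of 16512 protein-coding genes with a row, 12776 had a matched promoter, and the others are left out here. Such a start was found in 23 of the 100 most abundant genes with a matched promoter. It was found in 7 of those 77 that are not ribosomal proteins (9.09%), in 5.06% of all 12776 genes matched and in 4.04% of all 27305 promoters. The start sites are those of the annotation and were not measured in these cells.

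The gene lists differed in how many of their members were present. Translation factors (15 of 15), cytoskeleton (45 of 47), mesenchymal transcription factors (26 of 28) and mesenchymal effectors (25 of 28) stood above the 75.2% of all protein-coding genes that were present. Haematopoietic (3 of 13 with a row), endothelial (4 of 14), cadherin (6 of 19), epithelial (7 of 18) and neuronal (10 of 25) lists stood below it. Adrenergic transcription factors were below it as well, with 12 of 18, but above those lists. In between lay the bone, cartilage and fat (7 of 16), Schwann and crest (11 of 25) and catecholamine (10 of 20) lists. The muscle list (7 of 11) was close to the adrenergic one. Members without a row are left out of these counts, 4 of 22 adrenergic and 7 of 18 muscle genes among them. The lists had 980 different members, of which 897 had a row.

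**Figure D2:**
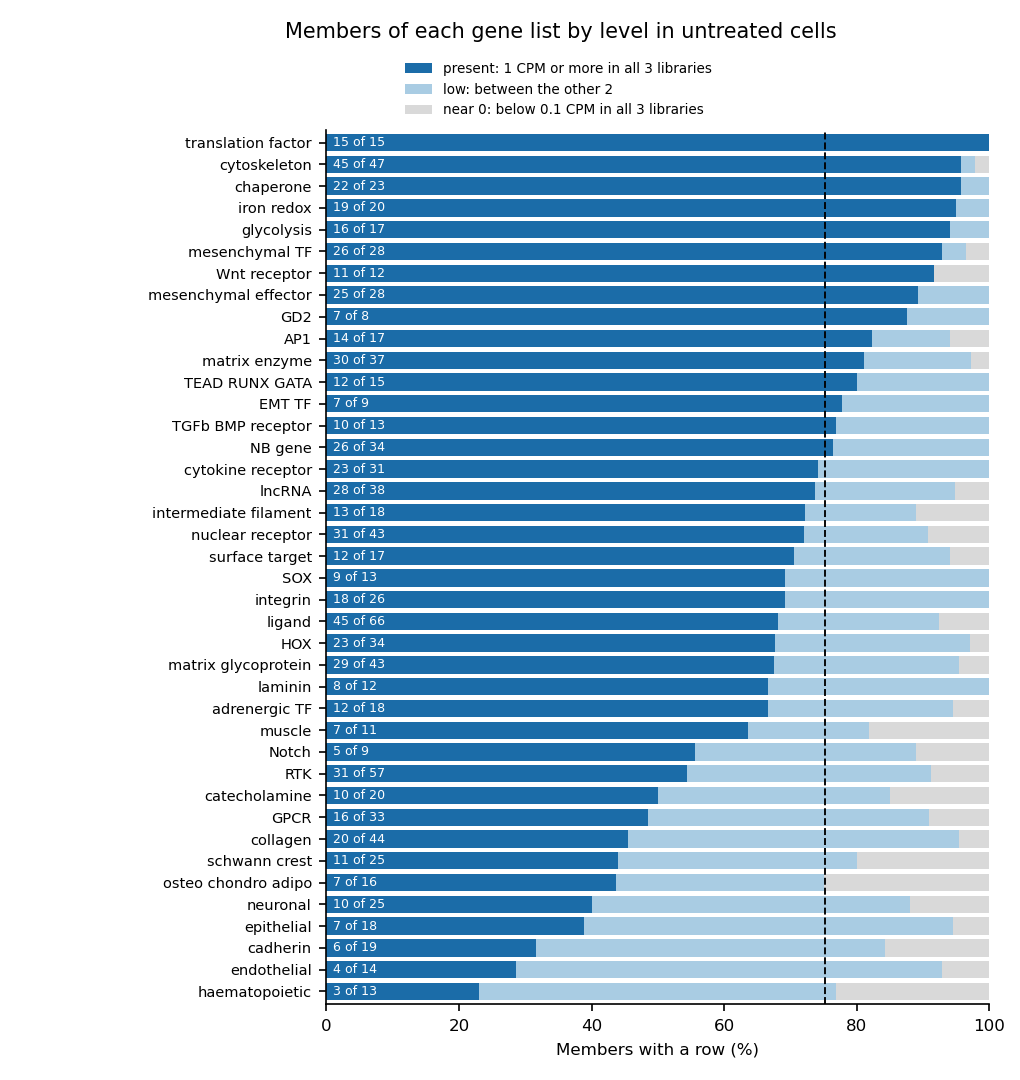
For each of 40 gene lists (vertical axis), the share of members with a row (horizontal axis, %) that were present, low or near 0 in the 3 untreated libraries, with the number present of the number with a row inside each bar. The dashed line marks the 75.2% of all protein-coding genes that were present; the mesenchymal lists lie to its right and the neuronal, epithelial, endothelial and haematopoietic lists to its left.

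Of the 28 transcription factors of the mesenchymal state, all had a row and 26 were present, with a median of 35.7 CPM against 19.9 CPM over all protein-coding genes. FOSL1, an AP-1 subunit, had the highest length-scaled level of the list at 287 ± 8.61 units and stood at 177, 194 and 193 CPM. It was followed by ID1, an inhibitor of basic helix-loop-helix factors, at 81.6, 102 and 102 CPM, and TWIST1, a helix-loop-helix factor of the cranial mesenchyme and of epithelial-mesenchymal transition, at 68.9, 66.6 and 73.7 CPM. SOX9, which directs crest and cartilage development, stood at 69.4, 62.1 and 65.9 CPM, with a CPM near that of SOX9-AS1. The 3 libraries of each of these genes lay within a narrow range, with ID1 lowest in replicate 1.

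PRRX1, the homeobox factor most often used to mark the mesenchymal state, stood at 71.0, 62.3 and 66.1 CPM. The signalling-linked factors were present as well: the Hippo partners TEAD1 (111 ± 19.7 CPM) and WWTR1 (57.4 ± 3.31), the TGF-beta effector SMAD3 (66.9 ± 5.86), the receptor NOTCH2 (133 ± 21.3) and the glucocorticoid receptor NR3C1 (54.8 ± 6.27). TEAD1 and NOTCH2 were higher in replicate 1 than in the other 2 libraries, which lay close together. FOSL2 stood at 82.2 ± 6.20 CPM, ZNF217 at 53.0 ± 6.09, ELK4 at 46.0 ± 4.16, TBX18 at 38.8 ± 3.53, RUNX1 at 32.5 ± 2.49 and RUNX2 at 23.0 ± 4.44, of which the RUNX factors bind DNA with the partner CBFB. The homeobox factor SIX4 (20.2 ± 2.61), the Wnt effector TCF7L2 (18.6 ± 1.91), IRF2 (17.6 ± 1.51), GLIS3 (17.4 ± 3.25) and IRF1 (13.5 ± 1.01) were present too. Further members present were SNAI2 (9.44 ± 0.634), TWIST2 (8.32 ± 1.34), MAFF (7.13 ± 0.414) and BHLHE41 (1.59 ± 0.157). The somite factors MEOX2 (0.327, 0.177 and 0.173 CPM) and MEOX1 (0, 0 and 0.0347 CPM) were the 2 members not present.

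In the TWIST and PRRX pairs 1 member was several times higher per length than the other. TWIST1 was 6.93 to 9.09 times TWIST2 per length in each library. PRRX2 had 7, 25 and 8 reads, so PRRX1 was 22.3 to 88.7 times as high, with replicate 2 giving the lowest ratio. The wider list of 9 epithelial-mesenchymal transition factors had 7 present, with ZEB1 at 42.3, 36.1 and 39.2 CPM, ZEB2 at 30.9, 28.0 and 26.9 CPM and SNAI1 at 5.09, 5.07 and 6.31 CPM, while SNAI3 (0.691, 0.567 and 1.18 CPM) and PRRX2 were low. Other pairs lay closer together, with SNAI1 at 9.38 ± 1.15 and SNAI2 at 8.01 ± 0.423 length-scaled units and RUNX1 at 6.03 ± 0.569 and RUNX2 at 8.10 ± 1.73.

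The adrenergic list was split. Of its 22 transcription factors 18 had a row and 12 were present, with a median of 9.54 CPM over the 18. HAND2, a helix-loop-helix factor of sympathetic neurons, heart and limb, was the highest per length at 40.4 ± 1.98 units and stood at 49.0, 53.9 and 48.7 CPM, and its antisense neighbour HAND2-AS1 stood at 31.6 CPM. GATA2 stood at 33.3, 37.4 and 34.7 CPM and GATA3, which drives noradrenergic differentiation, at 9.62, 8.76 and 9.17 CPM. ISL1, a LIM homeobox factor of sympathetic and motor neurons, stood at 9.37, 8.74 and 9.17 CPM. All 3 libraries of these 4 genes lay well above 1 CPM and close together.

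The other members present were PBX3 (33.0 ± 2.33 CPM), SIX3 (15.5 ± 1.05), HEY1 (11.2 ± 0.684), TBX2 (19.7 ± 1.68), LMO3 (17.8 ± 1.49), EYA1 (15.8 ± 1.24), KLF7 (9.89 ± 0.355) and SATB1 (6.12 ± 0.473). PHOX2A, a homeobox factor of the noradrenergic lineage, stood at 0.0727, 0.177 and 0.312 CPM, and SOX11, a factor of neural progenitors, at 0, 0 and 0.139 CPM. LMO1 (0.129 CPM) and ZNF536 (0.218 CPM) were low too. HAND1, INSM1, TFAP2B and DACH1 had no row in the table used here. The adrenergic factors thus fell into 12 genes at 5.75 CPM or more in each library and 6 genes at 0.312 CPM or less in each library.

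**Figure D3:**
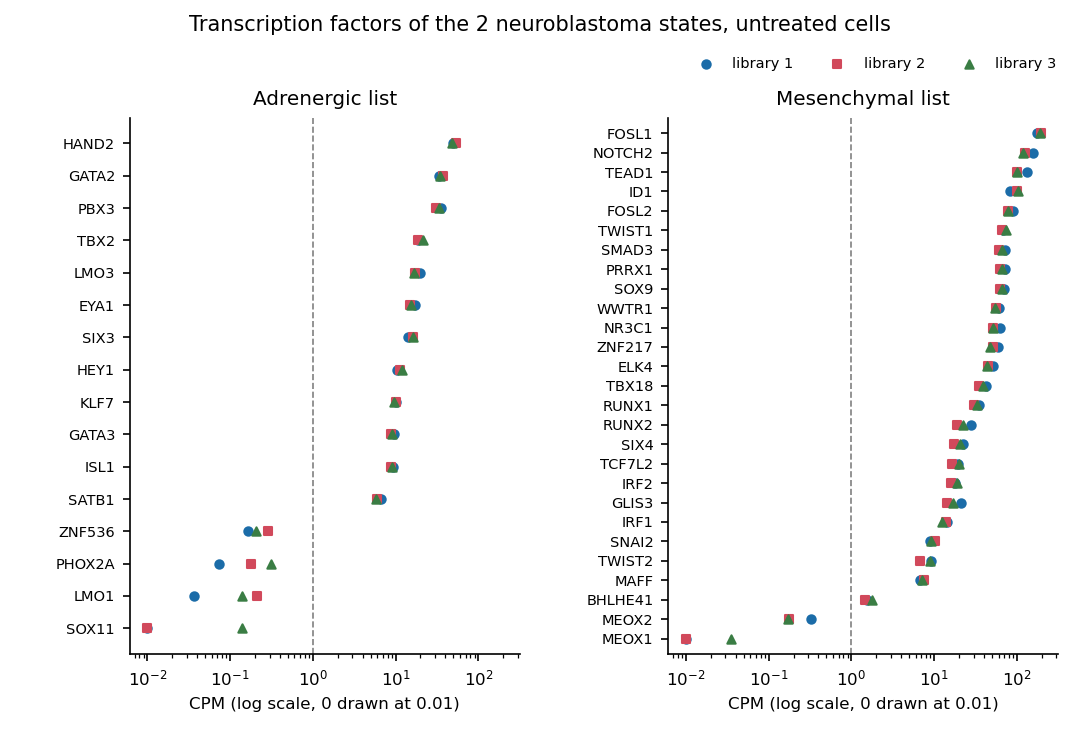
CPM of transcription factors of the adrenergic list (left, 16 of its 18 genes with a row) and the mesenchymal list (right, 27 of 28) in the 3 untreated libraries (horizontal axis, log scale, with 0 drawn at 0.01), one marker per library and a dashed line at 1 CPM. Of the adrenergic genes shown, HAND2 and GATA2 are among those above the line and PHOX2A and SOX11 lie below it, and of the mesenchymal genes shown only MEOX2 and MEOX1 lie below it.

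Enzymes and carriers of catecholamine production were largely low. Of 22 members 20 had a row, 10 were present and 3 were near 0. DBH, which makes noradrenaline from dopamine, stood at 0.255, 0.355 and 0.104 CPM, and DDC, which makes dopamine, at 0, 0.177 and 0.0347 CPM. The noradrenaline transporter SLC6A2, which takes up the imaging agent MIBG, stood at 0, 0 and 0.0347 CPM, and the vesicle carrier SLC18A1 at 0.0182, 0.0709 and 0 CPM. MAOB had 0 reads in all 3 libraries, which allows a level of up to 0.0546 CPM, and TH and PNMT had no row in the table used here. The highest value of these lineage genes in any library was 0.355 CPM, for DBH.

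The 10 members present were mostly not the enzymes that make catecholamines. They included SPR (73.4 ± 8.81 CPM), PTS (33.5 ± 3.39), QDPR (17.6 ± 1.58) and GCH1 (3.77 ± 0.486) of the tetrahydrobiopterin pathway. The secretory granule protein SCG2 stood at 61.2, 65.8 and 62.0 CPM, while chromogranin A (CHGA) stood at 0, 0.106 and 0.104 CPM. The vesicle carrier SLC18A2 was present at 6.55, 5.21 and 7.59 CPM. The granule proteins CHGB (2.66, 2.23 and 2.01 CPM) and VGF (1.95, 2.41 and 2.36 CPM) were present as well, and the granule electron carrier CYB561 stood at 19.4 ± 0.435 CPM. Granule genes were thus divided, with SCG2, CHGB and VGF present and CHGA, SCG3 and SCG5 low.

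Neuronal genes showed the same mixture, with 10 of 25 members with a row present and a median of 0.305 CPM. UCHL1, an abundant ubiquitin hydrolase of neurons, stood at 619, 745 and 673 CPM, and its length-scaled level of 857 ± 65.4 units was followed by TUBB3 (57.3 ± 4.63), whose CPM is near that of AC092143.1. ENO2 stood at 37.7 ± 1.66 CPM, ELAVL2 at 16.6 ± 1.72 and SNAP25 at 9.14 ± 0.678. The other members present were MAP2 (25.1 ± 3.46 CPM), NCAM1 (19.9 ± 1.74), SYT1 (7.16 ± 0.273), MAPT (3.02 ± 0.888) and RBFOX3 (2.16 ± 1.20), of cytoskeleton, adhesion, vesicle release and splicing. The 3 members near 0 were DCX, a microtubule protein of migrating neurons, with a mean of 0.00578 CPM, and the filament proteins PRPH (0.0592) and INA (0.0180). The other 12 were low, among them STMN2 (0.0716 CPM), ELAVL4 (0.118), RTN1 (0.305), GAP43 (0.591) and SYP (0.714). NEFL, NEFM and STMN4 had no row in the table used here.

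Effector genes of the mesenchymal state were abundant, with 25 of 28 present and a median of 154 CPM. Per length the highest after VIM (1621 ± 78.9 units) were the galectin LGALS1 (1265 ± 90.3), SPARC (1193 ± 88.7), the calcium-binding protein S100A11 (1042 ± 71.4, CPM near that of AL450992.1) and S100A6 (744 ± 23.3). Annexin A2 (ANXA2) stood at 1124, 1181 and 1166 CPM, the receptor tyrosine kinase AXL at 291, 282 and 282 CPM, and YAP1, the coactivator of the Hippo pathway, at 101, 85.8 and 84.5 CPM. The 3 members not present were IL6 (0.327, 0.284 and 0.104 CPM), PDGFRA (0.473, 0.284 and 0.901 CPM) and CDH11 (0.0364, 0.106 and 0 CPM), all below 1 CPM in every library, while the other 25 had means of 12.5 CPM (FAP) or more.

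Intermediate filament genes were not limited to vimentin. Of 18 members with a row 13 were present. The simple-epithelium keratins KRT18 (768, 775 and 826 CPM) and KRT8 (574, 545 and 621 CPM) were among the highest per length, at 707 ± 24.4 and 243 ± 16.7 units, as were the lamins LMNA (270.2 ± 20.5) and LMNB2 (188 ± 8.61). The progenitor filament nestin (NES) stood at 168, 176 and 158 CPM. Of the other keratins of simple epithelia KRT7 was present at 3.76, 2.78 and 3.29 CPM and KRT19 was low at 0.0364, 0.106 and 0.0693 CPM, and the neurofilament-like genes PRPH and INA were near 0, as above.

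Markers of epithelial, haematopoietic and endothelial cells were mostly low or near 0, whereas 7 of 11 muscle genes with a row were present. Of 18 epithelial genes with a row 7 were present, namely KRT18, KRT8, KRT7, PKP3 (36.0 ± 1.55 CPM), OCLN (9.61 ± 1.06), MUC1 (4.27 ± 0.215) and GRHL1 (1.56 ± 0.361), while E-cadherin (CDH1) had 14, 52 and 11 reads (0.255, 0.922 and 0.191 CPM) and EPCAM stood at 0.618, 0.638 and 0.468 CPM. ESRP1, a splicing factor of epithelia, was near 0 at 0.0546, 0.0709 and 0.0693 CPM. Of the junction genes of the list, PKP3 and OCLN were thus present and CDH1, CDH3, CLDN4, CLDN7 and DSP were low. Per length N-cadherin (CDH2, 139, 136 and 125 CPM) was 185 to 818 times CDH1.

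Of 13 haematopoietic genes with a row 3 were present. CSF1R, the receptor of macrophage growth factor, stood at 248, 272 and 279 CPM, but its level cannot be told apart from that of RPL7P1. The other 2 were LAPTM5 (5.82 ± 1.02 CPM) and CORO1A (2.53 ± 0.345), whereas the pan-leukocyte gene PTPRC stood at 0.291, 0.213 and 0.312 CPM and CD33 and LYZ were near 0 in all 3 libraries. Of 14 endothelial genes with a row 4 were present (EGFL7 18.8 ± 1.28 CPM, ESAM 1.41 ± 0.0215, ROBO4 1.98 ± 0.325, TIE1 1.76 ± 0.0800), a count that fell to 1 when 2 CPM was required and to 2 at 1 length-scaled unit, and VE-cadherin (CDH5) stood at 0, 0.0355 and 0 CPM. Of 18 muscle genes only 11 had a row, and 7 were present, led per length by the slow troponin TNNT1 (84.6, 87.4 and 89.4 CPM) and TRIM55 (102, 133 and 107 CPM). CKM and PAX7 were near 0, and MYOD1, MYF5 and MYOG had no row in the table used here.

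Among 25 Schwann, pigment and early crest genes 11 were present, with PMP22 (195, 193 and 211 CPM) the highest per length. PMEL followed, with a CPM near that of its neighbour CDK2. The crest factors MSX1 (27.9 ± 2.49 CPM), ETS1 (87.5 ± 7.94) and TFAP2A (40.9 ± 4.64) followed. SOX10, the factor that maintains glial and pigment cell precursors, had a mean of 0.0931 CPM, and S100B, EGR2, PAX3 and PAX7 were near 0. Of 16 bone, cartilage and fat genes with a row 7 were present, all with means of 26.2 CPM or less, with SPP1 (6.71 ± 0.690), PPARG (12.5 ± 1.82), BGLAP (2.12 ± 0.222), SOX6 (26.2 ± 1.85) and CEBPA (2.44 ± 0.331) the highest per length, while LEP, IBSP, LPL and ACAN were near 0.

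HOX genes, the homeobox genes that record position along the body axis, lie in 4 clusters. With a row were 34 members, of which 23 were present (67.6%), against 75.2% of all protein-coding genes. By cluster 4 of 8 HOXA, 6 of 9 HOXB, 6 of 8 HOXC and 7 of 9 HOXD genes with a row were present, and the median length-scaled levels were 0.624, 19.9, 7.47 and 12.3 units. HOXB2 stood at 147, 128 and 148 CPM, HOXB3 at 138, 118 and 128 CPM and HOXB4 at 67.2, 58.4 and 64.8 CPM. Further along the cluster HOXB5, HOXB6 and HOXB7 were present and HOXB8 was low at 0.109, 0.408 and 0.156 CPM as was HOXB9 at 0, 0.142 and 0.0693 CPM. In the HOXC cluster HOXC4 (27.9, 27.7 and 31.4 CPM) and HOXC6 (23.5, 26.8 and 24.8 CPM) were the highest per length.

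In the HOXD cluster the last genes were present as well. Of paralogue groups 9 to 13, 4 of 5 HOXD genes with a row were present, with HOXD10 at 26.5, 20.9 and 19.5 CPM, HOXD13 at 17.7, 18.7 and 16.7 CPM, HOXD11 at 10.9, 9.89 and 9.90 CPM and HOXD9 at 8.07, 8.53 and 9.78 CPM, while HOXD12 was low at 0.145, 0.177 and 0.0693 CPM. In the same groups 0 of 2 HOXB, 2 of 4 HOXC and 1 of 1 HOXA genes with a row were present, with HOXC9 at 7.13, 8.33 and 7.45 CPM. HOXA7 (0.0364, 0 and 0.0347 CPM) was near 0, and HOXA9, HOXA10, HOXA11, HOXB1 and HOXC12 had no row in the table used here. Antisense and spanning genes overlap HOX genes in the annotation used for lengths, so neighbours in a cluster may share reads.

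**Figure D4:**
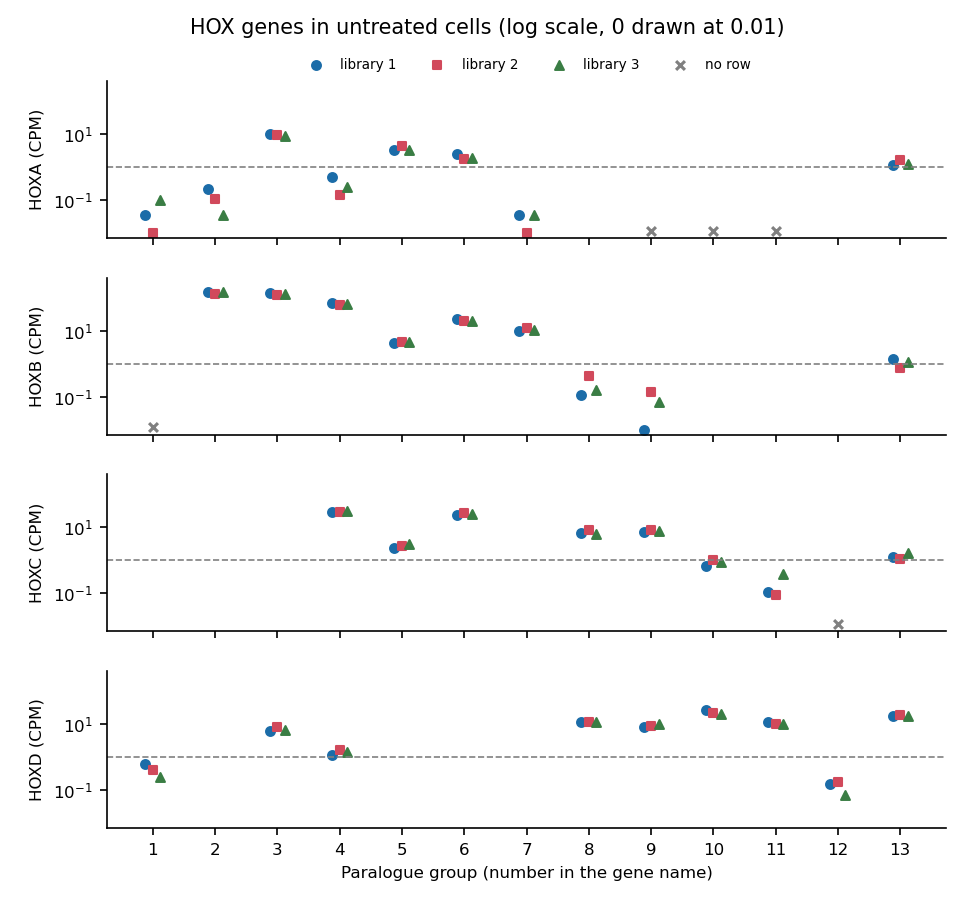
CPM (vertical axis, log scale, 0 drawn at 0.01) of the HOX genes of the 4 clusters (panels) by paralogue group (horizontal axis) in the 3 untreated libraries, with crosses for genes without a row and a dashed line at 1 CPM. HOXB2 to HOXB4 are the highest points, and HOXD10, HOXD11 and HOXD13 lie above the points of groups 10 to 13 in the other panels.

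Other factor families, from SOX genes to nuclear receptors, had 69.2% to 82.4% of their members with a row present. These shares lie on both sides of the 75.2% of all protein-coding genes, so the counts alone say little about identity. Of 13 SOX genes with a row 9 were present, or 7 without genes that share a neighbour's CPM. SOX9, SOX7 (CPM near that of PINX1), SOX12 (60.4 ± 3.87 CPM), SOX13 (31.2 ± 2.30) and SOX4 (18.7 ± 1.348) were the highest per length, and the stem cell factor SOX2 stood at 7.02, 5.53 and 6.41 CPM. Of 17 AP-1 genes with a row 14 were present. FOSL1 was 254 to 273 times FOS per length in each library, and JUND (66.7 ± 9.11 CPM), JUNB (41.5 ± 2.39), JUN (60.7 ± 2.39) and MAFG (65.3 ± 0.785) followed. FOS had 63, 74 and 70 reads, and BATF, an AP-1 factor of lymphocytes, was near 0.

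Of 15 TEAD, RUNX and GATA family and partner genes with a row 12 were present, with CBFB (86.0 ± 1.097 CPM), TEAD4 (46.4 ± 4.51), YAP1, TEAD1 and GATA2 the highest per length. GATA4, a factor of heart and gonad, stood at 29.3, 27.2 and 29.8 CPM and GATA6 at 1.09, 0.603 and 0.555 CPM. Of 43 nuclear receptor genes with a row 31 were present. The orphan receptors NR2F6 (127 ± 8.82 CPM) and NR2F2 (114 ± 5.82) led per length, followed by ESRRA (43.1 ± 3.66), NR1H2 (48.2 ± 1.22) and NR2C2, whose CPM is near that of MRPS25. RXRG, NR1H4 and NR1I2 were near 0. The progesterone receptor gene PGR stood at 0.0364, 0 and 0.208 CPM.

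ESR1, the gene of oestrogen receptor alpha, stood at 105, 85.8 and 88.9 CPM, a length-scaled level of 19.4 ± 2.50 units. All libraries of this line carry a construct with an oestrogen receptor part, and whether it adds reads to ESR1 was not tested.

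The matrix lists differed in the share of members present, against 75.2% of all protein-coding genes. It was 45.5% for collagens, 66.7% for laminins, 67.4% for matrix glycoproteins, 69.2% for integrins and 81.1% for matrix enzymes and inhibitors. Of 44 collagen genes 20 were present. COL1A1 led per length at 271 ± 20.7 units and stood at 969, 863 and 941 CPM, followed by COL5A2 (510.4, 459 and 439 CPM), COL3A1 (415, 337 and 354 CPM), COL6A2 (118, 112 and 126 CPM) and COL5A1 (262, 219 and 229.9 CPM). COL1A2, whose chain joins 2 COL1A1 chains in type I collagen, had 44, 60 and 46 reads (0.800, 1.06 and 0.797 CPM). Per length COL1A1 was therefore 921 to 1376 times COL1A2 in the 3 libraries. All 3 libraries gave this imbalance between the chains of 1 collagen, with COL1A2 at 1.06 CPM or less.

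Laminins, the trimers of basement membranes, had 8 of 12 members present. LAMB1 (315, 300.4 and 283 CPM) and LAMC1 (344, 285 and 285 CPM) did not differ per length beyond their spread, with a ratio of 0.946 to 1.09, and LAMB3 (92.0 ± 8.29 CPM), LAMB2 (108 ± 2.03) and LAMA5 (77.2 ± 4.50) followed. Of 43 matrix glycoproteins 29 were present, led per length by SPARC, CCN1 (440.1, 456 and 429 CPM), THBS1 (1061, 917 and 956 CPM), CCN2 (219, 232 and 238 CPM) and NID1 (382, 328 and 341 CPM). CCN1 and CCN2 are secreted products known as targets of YAP and TEAD. Fibronectin (FN1) stood at 741, 566 and 676 CPM, lowest in replicate 2. ACAN was near 0 and CCN4 had 0 reads in all 3 libraries, which allows up to 0.0546 CPM.

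Of 37 matrix enzymes and inhibitors 30 were present. The urokinase gene PLAU (613, 578 and 620.4 CPM) led per length, with a CPM near that of C10orf55, and the highest members also included the crosslinking enzyme TGM2 (1479, 1286 and 1523 CPM), TIMP1 (CPM near that of SYN1) and the lysyl hydroxylase PLOD1 (305, 264 and 331 CPM). The metalloproteinase inhibitor TIMP3 was near 0, with 0, 4 and 4 reads. The collagen chaperone SERPINH1 stood at 298 ± 13.7 CPM.

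Integrins, the receptors for this matrix, had 18 of 26 members present, led per length by ITGB1 (554, 510.0 and 476 CPM), ITGA3 (466, 459.8 and 485 CPM), ITGA6 (135, 129 and 115 CPM), ITGB5 (125, 109 and 133 CPM) and ITGAV (163, 146 and 125 CPM). ITGB1 was highest in replicate 1 and lowest in replicate 3, and its length-scaled level was 1.598 to 1.94 times that of ITGA3. Among 19 cadherins 6 were present, with CDH2 highest per length, then CDH12 (32.8 ± 2.37 CPM), CDH24 (16.1 ± 0.971), CDH13 (16.4 ± 0.969) and CDH19 (8.22 ± 1.13). CDH5, CDH6 and CDH22 were near 0.

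Receptor tyrosine kinases were represented by 31 of 57 members with a row (54.4%), against 75.2% of all protein-coding genes. AXL and the ephrin receptor EPHA2 (218, 212 and 226 CPM) led per length at 159 ± 6.31 and 151 ± 5.73 units, which overlapped within their SDs. CSF1R followed, with the limit given above, then EPHA3 (137, 108 and 115 CPM) and the hepatocyte growth factor receptor MET (116, 100.3 and 96.4 CPM). The collagen receptor DDR2 stood at 132 ± 17.1 CPM and EGFR at 79.8 ± 11.5. ALK, the kinase mutated in familial neuroblastoma, was low at 0.436, 0.567 and 1.01 CPM, and AXL was 401 to 954 times ALK per length. RET had no row in the table used here. LTK, EPHB6, INSRR, KIT and MUSK were near 0.

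Receptors of other pathways were present to different extents, against 75.2% of all protein-coding genes. Of 13 TGF-beta and BMP receptors with a row 10 were present, led per length by ENG (121 ± 8.29 CPM), TGFBR2 (43.8 ± 4.28), ACVR1 (29.2 ± 0.825), TGFBR1 (34.7 ± 3.61) and ACVR1B (19.1 ± 3.15). Of 12 Wnt and hedgehog receptors with a row 11 were present, led by FZD2 (45.2 ± 6.06 CPM), FZD6 (84.9 ± 6.17), LRP5 (81.6 ± 0.227), SMO (43.9 ± 3.53) and LRP6 (34.3 ± 5.07), with FZD9 near 0. In the Notch family 5 of 9 genes were present. The ligand JAG1 (142, 128 and 131 CPM) and NOTCH2 led, NOTCH1 (21.3 ± 0.698 CPM), JAG2 (6.53 ± 0.807) and DLL3 (2.59 ± 0.230) followed, NOTCH3 (0.629 ± 0.236), NOTCH4 (0.106 ± 0.0586) and DLL1 (0.0718 ± 0.0622) were low, and DLL4 was near 0.

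The list of cytokine and death receptors, which also counts the caspases CASP8 and CASP10, had 23 of 31 members present (74.2%). That is near the 75.2% of all protein-coding genes. The highest per length were TNFRSF12A (134, 135 and 159 CPM), the TRAIL receptor TNFRSF10B (142, 135 and 136 CPM), IFNGR2 (76.2 ± 4.93 CPM), TNFRSF1A (96.2 ± 8.96) and TNFRSF21 (71.3 ± 3.23). The other TRAIL death receptor, TNFRSF10A, stood at 0.0727, 0.0709 and 0.208 CPM. G protein-coupled receptors had 16 of 33 members with a row present (48.5%). They were led by the thrombin receptor F2R (179, 151 and 168 CPM), then F2RL2 (35.3 ± 3.50 CPM), F2RL1 (27.6 ± 2.40), S1PR5 (9.62 ± 0.434) and S1PR1 (12.9 ± 0.858). EDNRA, F2RL3 and DRD3 were near 0.

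Of secreted signals, 45 of 66 ligands and antagonists with a row were present (68.2%), against 75.2% of all protein-coding genes. TGFB1 led per length at 327 ± 23.0 units (365, 344 and 394 CPM), followed by the chemokine CXCL5 (121, 160.5 and 137 CPM), the Wnt antagonist DKK1 (63.4, 92.9 and 74.0 CPM), VEGFC (71.9, 92.1 and 82.0 CPM) and FSTL1 (306, 284 and 284 CPM). CXCL5, DKK1 and VEGFC were lowest in replicate 1 and highest in replicate 2. FGF5 stood at 169, 165 and 166 CPM in a narrow range. CSF2, BMP2, FGF7, IL1B and WNT2 were near 0, and HGF, the ligand of MET, stood at 0.145, 0.301 and 0.139 CPM. GAS6, the ligand of AXL, stood at 111 ± 7.02 CPM.

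Among genes tied to neuroblastoma, 26 of 34 with a row were present (76.5%), near the 75.2% of all protein-coding genes. MYCN stood at 572, 436 and 479 CPM, highest in replicate 1, and its reads can come from the endogenous gene and from the MYCN-ER construct, which cannot be told apart here. MYC stood at 30.1, 29.9 and 29.9 CPM and MYCL was low with a mean of 1.15 CPM. Per length MYCN was 16.8 to 21.9 times MYC. MYCNOS, the antisense transcript of MYCN, stood at 54.8 ± 8.54 CPM. Its exons overlap those of MYCN over 4.06% of their length, and whether some of its reads come from MYCN was not tested. Per length MYCN was followed by ODC1 (263, 322 and 268 CPM), the polyamine enzyme, then CDK4 (267, 279 and 290.0 CPM), the mitotic kinase AURKA (164, 179 and 167 CPM) and DDX1 (205, 231 and 195 CPM), which lies beside MYCN in many amplified tumours. TCEAL1, the target of the uninduced hairpin, stood at 9.71, 9.11 and 10.7 CPM.

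The telomerase gene TERT was present at 20.5, 22.9 and 18.6 CPM, and the RNA-binding protein LIN28B at 8.68, 9.27 and 8.23 CPM. CDKN2A, the INK4A and ARF tumour suppressor gene, had a mean of 0.0601 CPM, its neighbour MTAP stood at 4.24, 2.78 and 3.97 CPM, and CDKN2B had no row in the table used here. ALK, LMO1, NTRK2, LIN28A and CHD5 were low. The tumour suppressors ATRX (75.6 ± 9.47 CPM) and NF1 (56.9 ± 6.82) and the caspase CASP8 (45.1 ± 1.12) were present.

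GD2, the disialoganglioside that antibody treatment of neuroblastoma targets, is a product of the glycosyltransferases that build gangliosides. Of 8 ganglioside synthesis genes, not all of which act before GD2, 7 were present (87.5%, against 75.2% of all protein-coding genes). B4GALT5 (59.99 ± 3.58 CPM), UGCG (55.7 ± 4.10), B4GALNT1 (91.7 ± 4.15), B3GALT4 (26.0 ± 4.70) and B4GALT6 (35.8 ± 1.78) lay between 19.5 and 36.6 units on the length-scaled level. ST3GAL5, which makes GM3, and ST8SIA1, which makes GD3, were the lowest of those present, at 3.99 ± 0.264 and 3.76 ± 0.127 units and 22.7, 21.2 and 23.9 CPM and 18.97, 18.4 and 19.3 CPM. ST8SIA5 was low at 0.0727, 0.106 and 0.139 CPM.

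Of 17 surface targets with a row 12 were present (70.6%), against 75.2% of all protein-coding genes. They were led per length by EPHA2, GPC1 (151 ± 10.7 CPM), CD276 (127 ± 5.75), CD47 (66.0 ± 7.12) and EGFR. GPC2 (0.436, 0.496 and 0.659 CPM), L1CAM (0.109, 0.160 and 0.277 CPM), IL13RA2 and ALK were low, SLC6A2 was near 0 and DLK1 had no row in the table used here.

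Long non-coding RNAs were led per length by small nucleolar RNA hosts. Of 38 members with a row 28 were present (73.7%), against 17.3% of genes annotated as lincRNA and 47.5% of those annotated as antisense. SNHG29 stood at 1657, 1680.2 and 1815 CPM, SNHG5 at 164, 204 and 181 CPM, SNHG6 at 66.3, 79.3 and 73.8 CPM, SNHG8 at 40.1, 55.05 and 51.1 CPM and NORAD at 251, 219 and 211 CPM. HOTAIRM1 and UCA1 were near 0, and the imprinted transcript MEG3 stood at 1.05, 1.42 and 0.0693 CPM, with replicate 3 far below the other 2 libraries. H19, another imprinted transcript, was low at 0.255, 0.284 and 0.347 CPM.

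The housekeeping lists were nearly complete. All 15 translation factors were present, led per length by EEF1A1, EEF2, PABPC1, EEF1G (1105 ± 24.1 CPM, near that of AP002990.1) and EIF5A (1075 ± 63.2). Of 17 glycolytic enzymes 16 were present, led per length by GAPDH, ENO1, LDHB (969, 1206 and 996 CPM), TPI1 (648 ± 48.3 CPM) and ALDOA (939 ± 76.7), and the neural isoenzyme ALDOC was low at 0.982, 0.886 and 0.901 CPM. Of 23 chaperones 22 were present, led by HSP90AB1, HSP90AA1, HSPA8, HSPD1 (1583 ± 138 CPM) and HSPB1 (606 ± 69.1). The stress-inducible HSPA1A stood at 0.855, 0.709 and 1.02 CPM, an uncertain value because HSPA1B is a near-identical copy. Iron and redox genes had 19 of 20 members with a row present, led by FTL, PRDX1 (641 ± 27.0 CPM), FTH1 (642 ± 47.3), PRDX5 (164 ± 8.98) and PRDX6 (412 ± 12.4). Of 47 cytoskeleton genes 45 were present, and the smooth-muscle light chain MYL9 was near 0 at 0, 0.0886 and 0 CPM.

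Promoters of present genes were richer in CpG. The ratio of observed to expected CpG was taken over 300 bases around the RefSeq start, for protein-coding genes with a matched promoter only. Of 9844 such genes present (of 12420 present in all) 83.0% had a ratio of at least 0.6, against 47.3% of 2240 low genes and 34.2% of 692 near 0. Over all 12776 protein-coding genes matched, of 16512 with a row, the share was 74.1%. The adrenergic factors had 8 of 11 such promoters and the mesenchymal factors 16 of 20, shares near that of all genes matched. The mesenchymal effectors had 13 of 23 and the haematopoietic genes 1 of 8. These counts cover matched members only, for example 11 of the 18 adrenergic and 20 of the 28 mesenchymal factors with a row. This is a description of annotated promoters, and no binding or methylation was measured.

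Most genes kept their level from library to library. Among the 13017 genes averaging 5 CPM or more, 179 had a highest library at least 1.5 times the lowest and 11 at least 2 times. The 6 genes with the widest ratio were the mitochondrial-like pseudogene MTATP8P1 (11.5, 5.58 and 18.7 CPM), ZBED6 (22.4, 14.6 and 9.71 CPM), FASN, EEF1A1P14 (5.97, 13.6 and 6.88 CPM), OLMALINC (51.8, 22.9 and 39.2 CPM) and SCD. Of these 6, FASN and SCD are enzymes of fatty acid synthesis.

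FASN, which builds palmitate, stood at 1011, 438 and 767 CPM, and SCD, which desaturates it, at 969.9, 434 and 708 CPM, so both were lowest in replicate 2. A list of sterol and fatty acid synthesis genes, put together after this was seen, had 18 members with a row, and replicate 2 was the lowest library for all 18, against 40.7% of all genes present. INSIG1, the sterol sensor, stood at 87.0, 42.5 and 68.2 CPM, LPIN1 at 86.3, 46.4 and 65.0 CPM and DHCR7 at 92.7, 53.2 and 93.96 CPM. In 7 of the 18 genes the highest library was at least 1.5 times the lowest, and SQLE (64.8, 58.8 and 58.8 CPM) had the smallest ratio, 1.103. The cause was not tested.

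**Figure D5:**
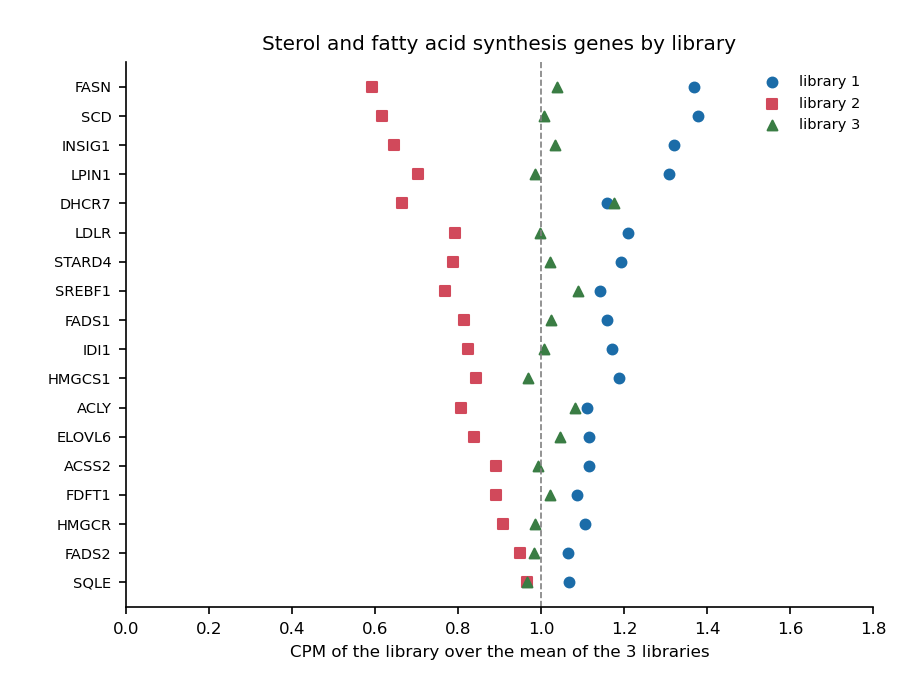
CPM of each library over the mean of the 3 untreated libraries (horizontal axis) for 18 sterol and fatty acid synthesis genes (vertical axis), one marker per library. Library numbers are replicate numbers, and replicate 2, shown by squares, is the lowest for all 18 genes, with FASN at 438 CPM against a mean of 739 CPM.

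Ribosomal protein genes varied in another order. None of the 84 was highest in replicate 1, 48 were highest in replicate 2, against 27.6% of all genes present, and 36 in replicate 3, and their summed share was 4.88%, 5.42% and 5.31%. Replicate 1 also held relatively more reads of genes with long merged exons, as given above. Merged exons of ribosomal protein genes differed in length, for example 767 bases for RPS12 and 4001 for RPLP0. Whether the 2 patterns are linked was not tested. Among 43 pseudogenes of 5S ribosomal RNA (RNA5SP genes) the summed level was 10.6, 28.6 and 10.5 CPM, highest in replicate 2, as were 23 of the 43 genes.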

How the data were processed

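The series holds 12 RNA-seq libraries in 4 groups of 3, and the 3 untreated libraries were used. The deposited values are CPM, normalized by the authors so that each library sums to 1000000, as the values show. Tools named in the submitters' processing notes are STAR, featureCounts, Bowtie, Bowtie2, FastQC and DRAGEN. Both mm10 and hg19 appear there as builds, with no role or version given. The gene annotation and strand setting are not given in the sources used here. Per the labels' protocols, poly(A) RNA was made into directional libraries. Whole reads were recovered from the CPM steps (100% of values whole within 0.01 reads). The libraries held 54984949, 56406236 and 57694970 reads, so 3 reads equal 0.052 to 0.0546 CPM; such limits cover counting error only. Levels per length used merged exon lengths of GENCODE release 29 (GRCh38, lengths, names and neighbours only), found for 28572 of 28576 genes, and 6873 genes without a symbol were known by their GENCODE name or identifier only. Promoter sequences came from RefSeq (GRCh38.p14) by symbol.

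No statistical test was made, because the untreated libraries are described alone. The 40 gene lists, 980 symbols from general knowledge, had 897 members with a row, 2 of them matched by identifier. The lists, their members and the subject were chosen with earlier results of these data known. Genes were named by rule: the 20 highest with a symbol by CPM and per length, the 5 highest per length and up to 5 near 0 in each list, all members of short lists, all present transcription factors of both states, MYC genes, ALK and ESR1, and the 6 genes with the widest ratio between libraries. Members and other genes outside that rule (among them the EIF2B subunits, COL1A2, CDKN2A, MTAP, the lipid genes, RNA5SP genes, neighbours with nearly the same CPM and members named for their known role) were chosen after their values were seen. Some members that the rule names are not reported here. Alternatives changed the level that counts as present, the length, the scaling (edgeR 4.0.16, TMM, in R 4.3.3), the genes ranked, the minimum level for the spread and the libraries. Computation used Python 3.11.15, pandas 2.3.3 and numpy 2.4.6, and the scripts were tested on simulated data.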

Additional observations from a re-analysis of the deposited data

How the results depend on the processing

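The number of genes present was 15917 and ranged from 14617 (2 CPM) to 17284 (0.5 CPM), with 17145 at 1 length-scaled unit, 16361 by the mean and 16036 to 16067 without 1 replicate. Of the list members 620 were present, 574 to 650 over those settings and 604 without genes that share a neighbour's CPM, a setting chosen after seeing the data. Counts of all 40 lists stayed within 1.5 times, except the endothelial list, which fell from 4 to 1 at 2 CPM and to 2 at 1 length-scaled unit. The share of the first 10 genes moved from 3.61% to 3.98% over protein-coding genes only and to 5.76% on the length-scaled level. That of the first 100 moved from 14.4% to 21.4% on the length-scaled level, and that of the first 1000 from 43.3% to 45.3% and 54.3% in the same 2 settings. Leaving out 1 replicate gave 3.56% to 3.69%, 14.2% to 14.7% and 43.0% to 43.7%. The number of genes with a ratio of 1.5 or more between libraries was 179 from 5 CPM, 1060 from 1 CPM and 51 from 20 CPM, so it depends on the minimum level. The length of the longest transcript in place of merged exons changed many levels. VIM rose to 2369 and PRRX1 to 33.8 units, and MYCN fell to 415, AXL to 131 and FOSL1 to 245 units. SPARC, GATA2 and HAND2 stayed within 1 SD. Of the 20 highest genes per length 15 stayed among the 20 highest, so orders per length depend on the length used. TMM factors were 0.993 to 1.01. No paired analysis was possible because no comparison between groups was made. Depth limits genes near 0, where 3 reads are the floor, and overlapping or neighbouring genes limit the levels of the pairs named.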

Other observations

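Antisense genes were common among the genes counted. Of 3620 genes annotated as antisense 1721 were present, and together they held 5.00% of all reads, although the labels describe a directional library. VIM-AS1, which lies beside VIM, stood at 800.3, 773 and 884 CPM. Among antisense genes averaging 10 CPM or more, 128 had at least 90% of their exon length on exons of a gene on the other strand. PIN4 stood at 1299 CPM next to the ribosomal protein gene RPS4X at 1223 CPM. Whether such reads come from the antisense or neighbouring transcript was not tested.

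Mitochondrial-like pseudogenes were abundant while no mitochondrially encoded gene had a row in the table used here. MTCO1P12 stood at 957, 923 and 1063 CPM and MTATP6P1 at 585, 593 and 670.4 CPM. Both were highest in replicate 3.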
